A study of Mus musculus with 2 samples.

Results

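Integrins and laminins were measured in whole thymus RNA of newborn mice, the organ in which T cells mature. The members are the protein-coding genes whose GENCODE M21 symbol starts with Itga or Itgb (Itgb1bp1 and Itgbl1 left out) or is Lama, Lamb or Lamc followed by a number. The rule gave 40 genes of the 43346 in the tables, of which 21474 are protein-coding. They were 18 integrin alpha chains, 9 integrin beta chains, 5 laminin alpha, 3 laminin beta and 3 laminin gamma chains, and 2 genes that share the Itgb prefix but are no chains (Itgb1bp2 and Itgb3bp). No measured value entered the rule.

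The study has 1 group of 2 libraries, from mice of strain B6NCrl at postnatal day 0. Each library came from both thymus lobes of 1 pup, and the labels place both pups with 1 pregnant female; they name no treatment and no genotype beyond the strain. There is thus no comparison between groups, and the question is at what level a newborn thymus holds each chain, in what proportion to its partners, and how far littermates differ. Levels are TPM, a relative abundance scaled to transcript length, so that genes can be set beside each other, and are given for replicate 1 and then replicate 2, or as mean ± SD (n = 2). A gene was called detected at 1 TPM or more in both libraries.

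Integrins are receptors of 1 alpha and 1 beta chain that tie a cell to extracellular matrix or to another cell, and a beta chain can pair with several alpha chains. Laminins are trimers of an alpha, a beta and a gamma chain that build basement membranes, and several integrins are their receptors. In the thymus the leukocyte integrins are known for contacts between thymocytes and stroma, and laminins line the epithelium, the vessels and the capsule.

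The libraries held 39045711 and 41576378 expected counts. All 10 T-lineage, 6 cortical epithelial, 6 medullary and basal epithelial, 8 mesenchymal, 8 endothelial and 6 macrophage markers were detected. Markers of stratified squamous epithelium summed to 87.7 and 8.87 TPM, and those of fat cells to 26.1 and 2.83 TPM. Markers of smooth muscle and pericytes summed to 41.1 and 59.7 TPM. These are whole-tissue values, in which fewer cells of a type and less RNA per cell cannot be told apart.

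Of the 40 genes 30 were detected (75.0%), against 57.3% of all protein-coding genes. Detected were 14 of 18 integrin alpha, 6 of 9 integrin beta, 4 of 5 laminin alpha, 3 of 3 laminin beta and 2 of 3 laminin gamma chains. The median level was 3.65 TPM over the 40 genes and 2.87 TPM over all protein-coding genes. Among detected genes the order was the other way, with 6.38 TPM for the members and 17.3 TPM for protein-coding genes. The integrin chains summed to 424 and 427 TPM and the laminin chains to 78.2 and 73.1 TPM.

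**Figure D1:**
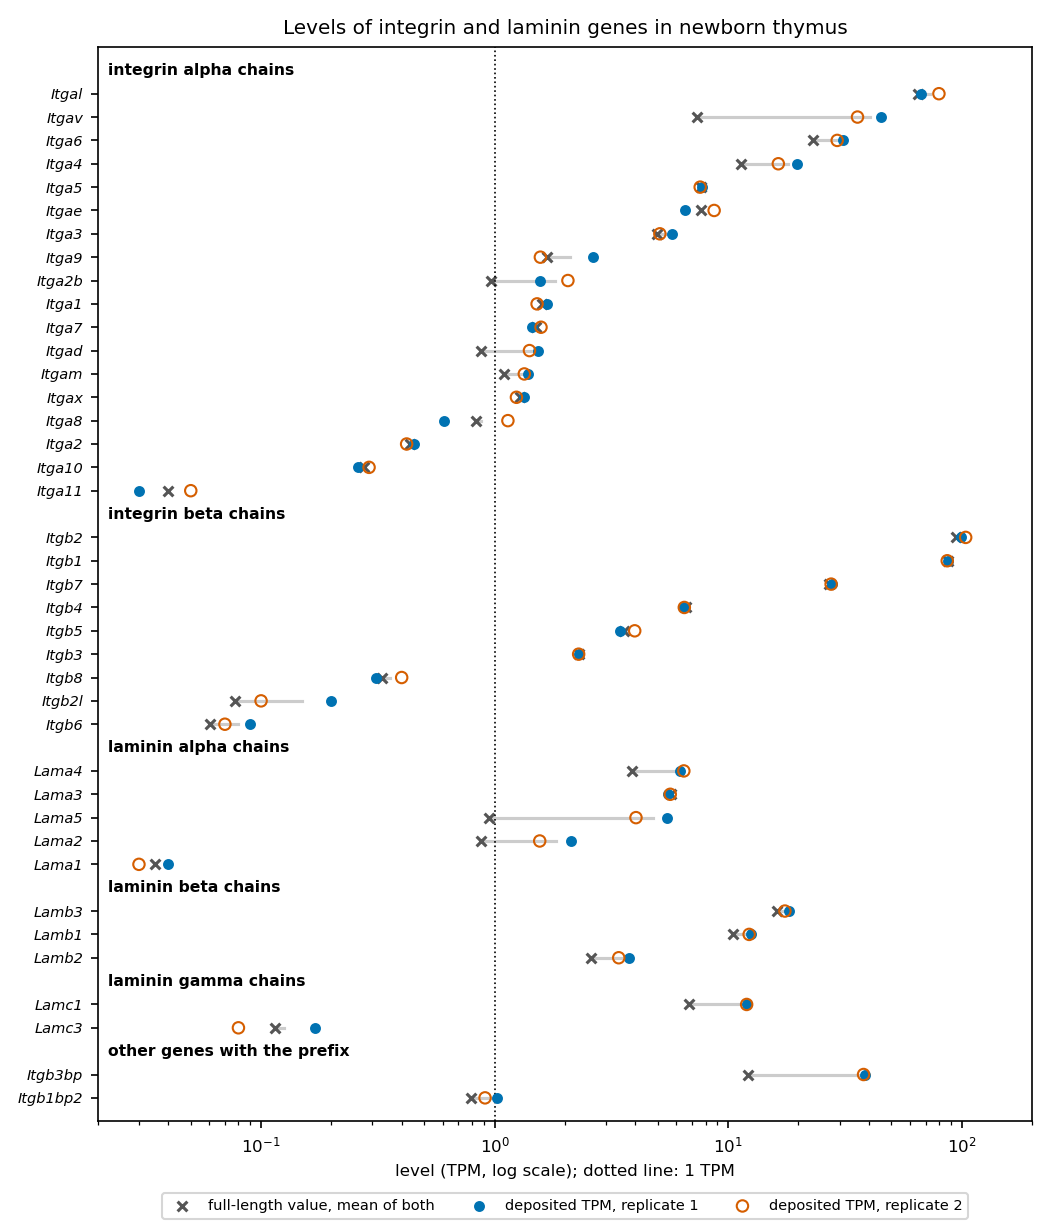
Level of 39 of the 40 genes in TPM on a log axis, by class. Filled points are replicate 1, open points replicate 2, and crosses the mean with the length of the full-length coding transcript in place of the deposited gene length; a grey line joins the cross to the deposited mean. Itgb2, Itgb1 and Itgal were highest, and Itgav and Lama5 moved most with the length used.

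The deposited gene level depends on which transcripts the estimate used. For several long genes it was partly assigned to short models, whose few reads weigh heavily after division by length. A second level, called the full-length value here, therefore divided the gene's expected counts by the effective length of the complete coding transcript that took most of them. The deposited level was over 1.5 times this value for 8 of the 29 detected chains, against 12.5% of detected protein-coding genes. They were Itgav, Lama5, Lama2, Itga2b, Lamc1, Itgad, Lama4 and Itga4, and both values are given for them. With the full-length value, 4 of the 29 detected chains fell below 1 TPM in at least 1 library, namely Lama5, Lama2, Itga2b and Itgad. A further alternative summed the TPM of protein-coding transcripts only, incomplete ones included, and is given where it moved a ratio by over 1.5 times or across 1. Reads that fit several places added little spread: the deposited posterior SD of a gene's count was at most 6.81 counts (Itga4), and 0 in both libraries for 28 of the 40 genes.

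The LFA-1 chains Itgb2 and Itgal, with Itgb1, were the 3 highest members. Itgb2, the CD18 chain shared by all leukocyte integrins of the beta2 type (chromosome 10, 77530252 to 77565708), stood at 99.6 and 104 TPM. Itgal, the CD11a chain that with Itgb2 forms LFA-1, the receptor for the ICAM adhesion molecules, stood at 66.9 and 79.9 TPM (chromosome 7, 127296260 to 127335138). The other alpha chains of Itgb2 were near the threshold of detection. Itgam, the CD11b chain of macrophages and granulocytes, was at 1.39 and 1.34 TPM. Itgax, the CD11c chain known from dendritic cells and macrophages, was at 1.33 and 1.24 TPM. Itgad, the CD11d chain, was at 1.54 and 1.41 TPM, or 0.970 and 0.785 TPM as the full-length value. These 3 genes lie side by side, 11.1 and 3.72 kb apart, and 728 kb from Itgal on the same chromosome. Most of the Itgam expected counts (90.0 of 158 and 118 of 151) were on a transcript that M21 does not place in Itgam, so its level is uncertain.

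The 4 alpha chains together reached 0.761 ± 0.0651 of the level of Itgb2, and Itgal alone 0.720 ± 0.0682. Macrophage markers summed to 270.4 and 288 TPM and dendritic cell markers to 9.62 and 8.84 TPM. Itgb2l, a gene named for its likeness to Itgb2, had 5 and 8 counts.

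Itgb7 pairs with Itga4, in a receptor for the gut addressin MAdCAM-1, and with Itgae, in the receptor for E-cadherin. Itgb7 was at 27.8 and 27.6 TPM. Itga4, which also pairs with Itgb1 as the receptor for VCAM-1 and fibronectin, was at 19.7 and 16.4 TPM, or 12.2 and 10.4 TPM as the full-length value. Itgae, the CD103 chain of T cells in epithelia, was at 6.55 and 8.71 TPM. Its level in the order lay beside that of Itga5, from which it did not differ beyond the spread of the libraries. The sum of Itga4 and Itgae was 0.928 ± 0.0266 of Itgb7, 0.702 ± 0.0125 with full-length values, and 0.589 with coding transcripts only, so that Itgb7 was the higher in both libraries on all 3 scales.

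Itgb1, the beta chain with the most alpha partners (chromosome 8, 128685654 to 128733200), was at 87.7 and 86.7 TPM. Its 12 alpha partners summed to 117 and 101 TPM as deposited, 1.25 ± 0.118 times Itgb1. With full-length values they summed to 63.4 and 58.0 TPM, 0.697 ± 0.0393 times Itgb1. With coding transcripts only the ratio was 1.02 and 0.883, on either side of 1. The side of 1 on which it fell thus depended on the scale. Between the deposited and full-length scales Itgav went from 40.4 to 7.32 TPM on average, and with coding transcripts only it stayed at 39.2 TPM while Itga6 went from 30.2 to 14.3 TPM.

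Among the laminin receptors of this family, Itga6, which pairs with Itgb1 and Itgb4, was the highest at 31.1 and 29.3 TPM (chromosome 2, 71745616 to 71858416). Itga3, the alpha chain of an epithelial laminin receptor, was at 5.76 and 5.10 TPM. Itga7, the laminin receptor chain best known from muscle, was at 1.44 and 1.58 TPM. The 3 chains together were 0.426 ± 0.0160 of Itgb1, most of it Itga6, but 0.340 ± 0.0123 with full-length values and 0.239 ± 0.0115 with coding transcripts only. Itgb4, whose long cytoplasmic tail anchors hemidesmosomes in epithelial cells, was at 6.38 and 6.49 TPM. Itga6 was 4.69 ± 0.261 times Itgb4, or 3.50 ± 0.220 times with full-length values and 2.23 ± 0.139 times with coding transcripts only.

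The RNAs of Itga6 and Itga3 each have an alternative exon that encodes one of their cytoplasmic tails, the A form, and skipping it gives the B form. The coding parts of both exons are shown because the deposited transcript estimates separate the forms only in part. They are from the GENCODE M21 transcripts (GRCm38), at chr2:71853534-71853638 on the plus strand and chr11:95046483-95046590 on the minus strand. Capitals mark bases that are identical in a global alignment of the exons, 65 of 105 aligned bases (61.9%).
Itga6: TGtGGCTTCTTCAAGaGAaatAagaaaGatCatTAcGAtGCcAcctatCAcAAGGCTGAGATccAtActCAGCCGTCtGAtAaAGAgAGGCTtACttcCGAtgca
Itga3: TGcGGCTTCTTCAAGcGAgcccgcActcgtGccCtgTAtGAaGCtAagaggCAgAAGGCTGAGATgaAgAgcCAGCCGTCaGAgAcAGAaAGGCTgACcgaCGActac

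For Itga3 the transcript with this exon, Itga3-201, took 570.1 and 709.8 counts. The complete transcript that skips it, Itga3-203, took 139 and 0 counts, so reads were assigned to the skipped form in replicate 1 only. These counts are estimates that divide reads shared by both transcripts. The 0 therefore sets no limit on the skipped form in replicate 2. For Itga6 the transcripts with the exon, Itga6-201 and Itga6-207, summed to 14.9 and 13.7 TPM. The complete coding transcript that skips it, Itga6-202, had 0 counts in both libraries. However, the noncoding model Itga6-203, of 2721 nt, also joins the neighbouring exons without it and took 1061 and 1119 counts, or 13.7 and 13.4 TPM. This model runs 1645 nt past the end of Itga6-202, and from these tables reads of that end cannot be told apart from reads of the junction. The shares of the A and B forms of Itga6 were therefore not determined.

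Collagen receptors were low. Itga1, which binds basement membrane collagen, was at 1.67 and 1.52 TPM and was the only one detected. Itga2, its neighbour 21 kb away on chromosome 13, was at 0.450 and 0.420 TPM. Itga10, known from cartilage, was at 0.260 and 0.290 TPM, and Itga11, known from fibroblasts, had 4 and 8 counts. The 4 genes together were 0.0269 ± 0.000845 of Itgb1, against 0.239 to 0.426 for the laminin receptors over the scales used.

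Receptors for fibronectin and related ligands ranged widely. Itga5, the classical fibronectin receptor chain, was at 7.76 and 7.59 TPM. Itga9, which binds tenascin-C and osteopontin, was at 2.64 and 1.57 TPM. Itga8, the receptor chain for nephronectin, was at 0.610 and 1.14 TPM and so reached 1 TPM in replicate 2 only.

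Itgav, the chain that binds the RGD sequence of vitronectin and of latent TGF-beta, gave the widest gap between the 2 scales. It was at 45 and 35.8 TPM as deposited, and at 8.08 and 6.55 TPM as the full-length value, 5.53 times lower on average. Itgav-205, an incomplete model of 463 nt within 4.85% of the gene's span from its 3′ end, held 81.8% ± 1.44 of the TPM but 24.6% of the expected counts. Its partners besides Itgb1 were lower. Itgb5, a vitronectin receptor chain, was at 3.45 and 3.98 TPM, and Itgb3, the chain shared with platelets, at 2.30 and 2.29 TPM. Itgb8 and Itgb6, both known for activating latent TGF-beta, were at 0.310 and 0.40 TPM and at 0.0900 and 0.0700 TPM. Itgav was 6.32 ± 1.42 times the sum of these 4 beta chains as deposited and 1.17 ± 0.223 times with full-length values. Itga2b, the platelet chain that pairs with Itgb3, was at 1.57 and 2.06 TPM, or 0.856 and 1.07 TPM as the full-length value. Of the 6 megakaryocyte and platelet markers 2 were detected, against 57.3% of all protein-coding genes. Pf4 was at 68.5 and 67.0 TPM, and Ppbp was lower in replicate 2, at 2.87 and 1.12 TPM. Gp1bb, Gp9 and Gp1ba were below 1 TPM in both libraries. Gp6 had 0 counts in both libraries, which allows up to 3 counts in each (0.0768 and 0.0722 CPM). Such limits, and the intervals given further on, cover counting error only.

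**Figure D2:**
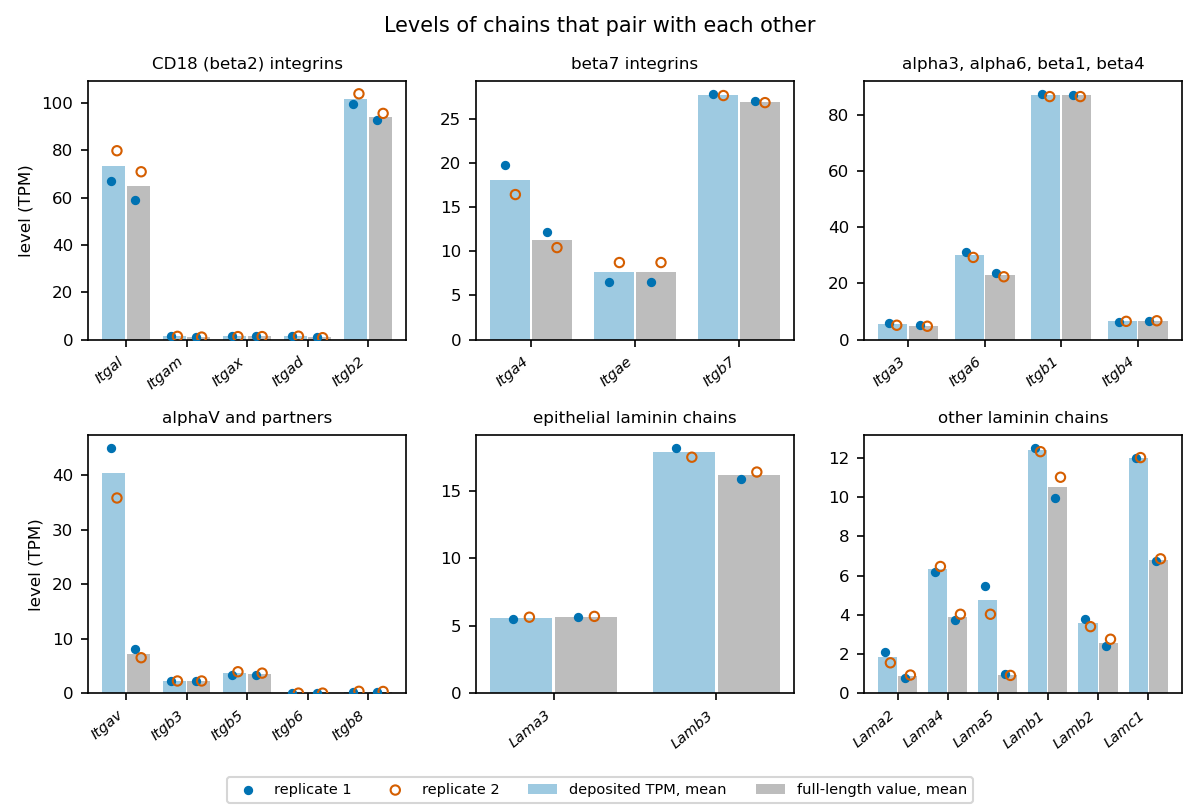
Levels of chains that pair with each other, in TPM on linear axes that start at 0 and differ between panels. Blue bars are deposited means, grey bars full-length means, and points the single libraries. Itgb2 and Itgb7 stood above each of their own alpha chains, Lamb3 above Lama3, and the deposited bar of Itgav stood far above its full-length bar.

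The 2 genes with the prefix that are no chains differed widely. Itgb3bp, which encodes the kinetochore protein CENP-R, was at 38.5 and 38 TPM, or 12 and 12.4 TPM as the full-length value. Itgb1bp2, which encodes melusin, a chaperone-like protein of striated muscle, was at 1.02 and 0.910 TPM.

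Among laminin alpha chains, Lama4, the chain of vessel walls, was at 6.2 and 6.46 TPM, or 3.75 and 4.03 TPM as the full-length value. Lama3, an alpha chain of epithelial basement membranes, was at 5.55 and 5.65 TPM (chromosome 18, 12333819 to 12583013). Lama5, the most widespread alpha chain of adult basement membranes, was at 5.46 and 4.03 TPM as deposited but at 0.970 and 0.919 TPM as the full-length value. Lama2, the chain of muscle and nerve, was at 2.13 and 1.56 TPM, and at 0.804 and 0.938 TPM as the full-length value. Lama1, known from the early embryo, had 11 and 10 counts. The deposited levels thus put Lama4, Lama3 and Lama5 close together, and the full-length values put Lama3 first and Lama5 well below Lama4.

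Among beta chains, Lamb3, the partner of Lama3, was the highest laminin gene at 18.2 and 17.5 TPM. Lamb1, the common beta chain, was at 12.5 and 12.3 TPM. Lamb2, known from the neuromuscular junction and the kidney filter, was at 3.78 and 3.40 TPM, 0.289 ± 0.0179 of Lamb1. Of the gamma chains, Lamc1, part of most laminins, was at 12 TPM in both libraries, or 6.76 and 6.85 TPM as the full-length value. Lamc3 had 25.0 and 14.4 counts.

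Lama3 and its partner Lamb3 were not held at equal RNA levels. Lama3 was 0.314 ± 0.0134 of Lamb3, and 0.351 ± 0.00425 with full-length values, so the alpha chain was the lower in both libraries on both scales. For the laminins built on Lamc1, Lamb1 was 1.04 ± 0.0148 times Lamc1 as deposited, 1.54 ± 0.0969 times with full-length values and 0.849 ± 0.0730 times with coding transcripts only. Lama4 was 0.529 ± 0.0147 of Lamc1 as deposited, 0.572 ± 0.0241 with full-length values and 0.313 ± 0.0205 with coding transcripts only. Lama5 was 0.396 ± 0.0849 of Lamc1, 0.139 ± 0.00655 with full-length values and 0.0676 ± 0.000409 with coding transcripts only.

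In the order of the 40 mean levels, 21 of the 39 neighbouring pairs had ranges over the 2 libraries that did not touch. Itgb2, Itgb1, Itgal and Itgav, the top 4 as deposited, were separated from each other in this sense. Itgav overlapped with the next gene, Itgb3bp. With full-length values its mean of 7.32 TPM lay below that of Itga4, at 11.3 TPM. Neighbours that overlapped included Itga4 and Lamb3, Lama3 and Itga3, and the run from Itgb3 through Itga9, Lama2, Itga2b, Itga1 and Itga7 to Itgad.

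The transcripts behind these levels were mostly the complete coding ones. Of 26 detected members with 2 or more measured transcripts, the transcript with the most expected counts was the same in both libraries for 26 and was complete and coding for 24. By TPM the highest transcript was the same in 23 and complete and coding in 19. Over the chains, complete coding transcripts held 91.4% and 92.2% of expected counts but 76.8% and 79.5% of TPM. Among the models behind this gap were short ones near the 3′ end of long genes. Lama5-204, Lama5-203 and Lama5-202, each of 734 nt or less and within 6.61% of the gene's span from its 3′ end, took 85.6% and 80.4% of the TPM of Lama5. Its coding transcript Lama5-201, of 11388 nt, took 83.4% of the counts. Lamc1-204 took 49.9% ± 0.0354 of the TPM of Lamc1 and 15.7% of its counts. Not all such models were confined to the 3′ end. Lama2-206, with 38.5% of the TPM of Lama2, and Itga4-203, with 24.0% of that of Itga4, reached to or near the 5′ end.

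**Figure D3:**
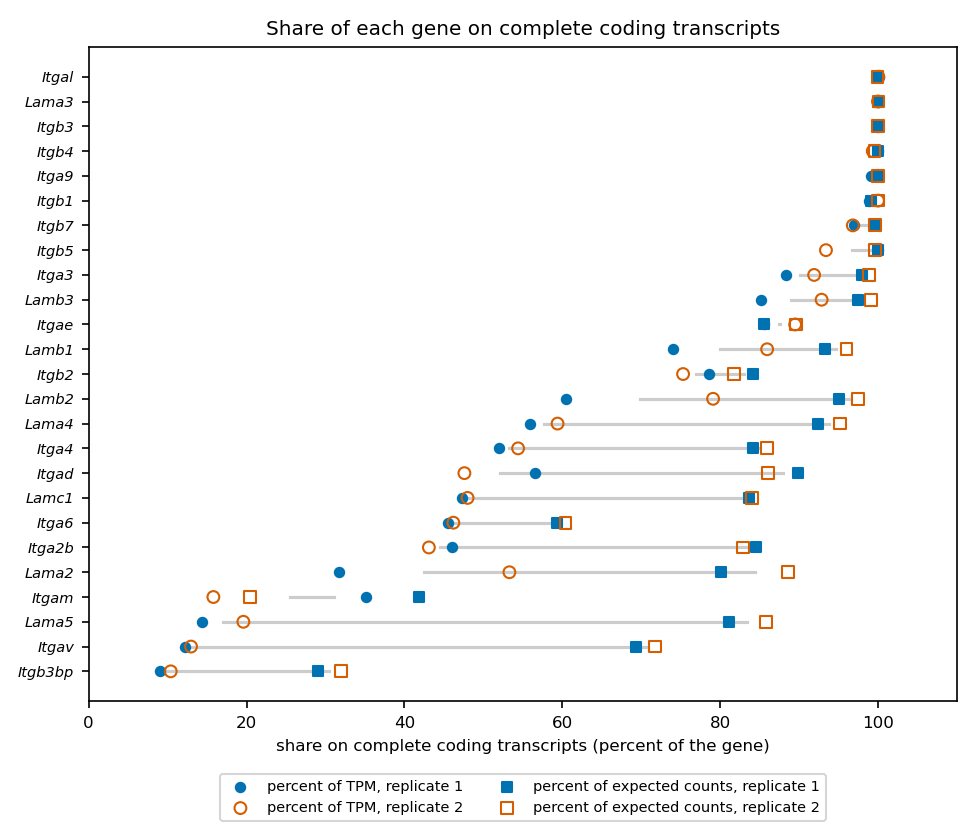
Share of each gene on complete coding transcripts, for 25 of the 26 detected genes with 2 or more measured transcripts. Circles are percent of TPM, squares percent of expected counts, filled for replicate 1 and open for replicate 2, and a grey line joins the means. Circles lay far left of squares for Itgav, Lama5 and Lama2, and on them for Itgal, Lama3 and Itgb3.

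Several genes gave a choice between coding forms. Lama3 was almost wholly on its short form, Lama3-202 of 5551 nt, with 98.4% ± 0.587 of TPM, against 1.60% ± 0.587 for the long form Lama3-201 of 10548 nt. Itgal was divided over Itgal-203, with 46.1% ± 2.39, and Itgal-201, with 45.6% ± 0.566. Itgb1 was almost wholly on Itgb1-201, at 99.4% ± 0.799. Itgb2-201 held 77.0% ± 2.33 of Itgb2, and Itgb2-204, annotated as a target of nonsense-mediated decay, held 16.2% ± 2.06. Itgb4 was spread over 6 complete coding transcripts with counts in at least 1 library, and its highest, Itgb4-202, held 70.7% and 43.6%. That share differed more between the libraries than the level of Itgb4 itself. All these shares depend on the transcripts in the annotation.

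The littermates were close for nearly all chains. Ratios here are replicate 2 over replicate 1 of scaled expected counts, at a mean of 50 counts or more. With 1 library per pup they compare libraries, with no replicate check and no p-value. Of 33 members that passed this minimum, 1 was over 2-fold apart (Itga8), against 1.36% of 14155 genes, and it was higher in replicate 2, as were 0.198% of genes, while 1.16% were higher in replicate 1. Below the minimum were Itgb1bp2, Itga10, Itgb2l, Lamc3, Itgb6, Itga11 and Lama1. Of the 32 chains, 27 were within 1.25-fold, against 83.5% of all genes, and the median difference was 1.10-fold for chains and for all genes alike. In the chains 20 of 32 were higher in replicate 2 and 12 in replicate 1, against 53.9% and 46.1% of all genes.

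**Figure D4:**
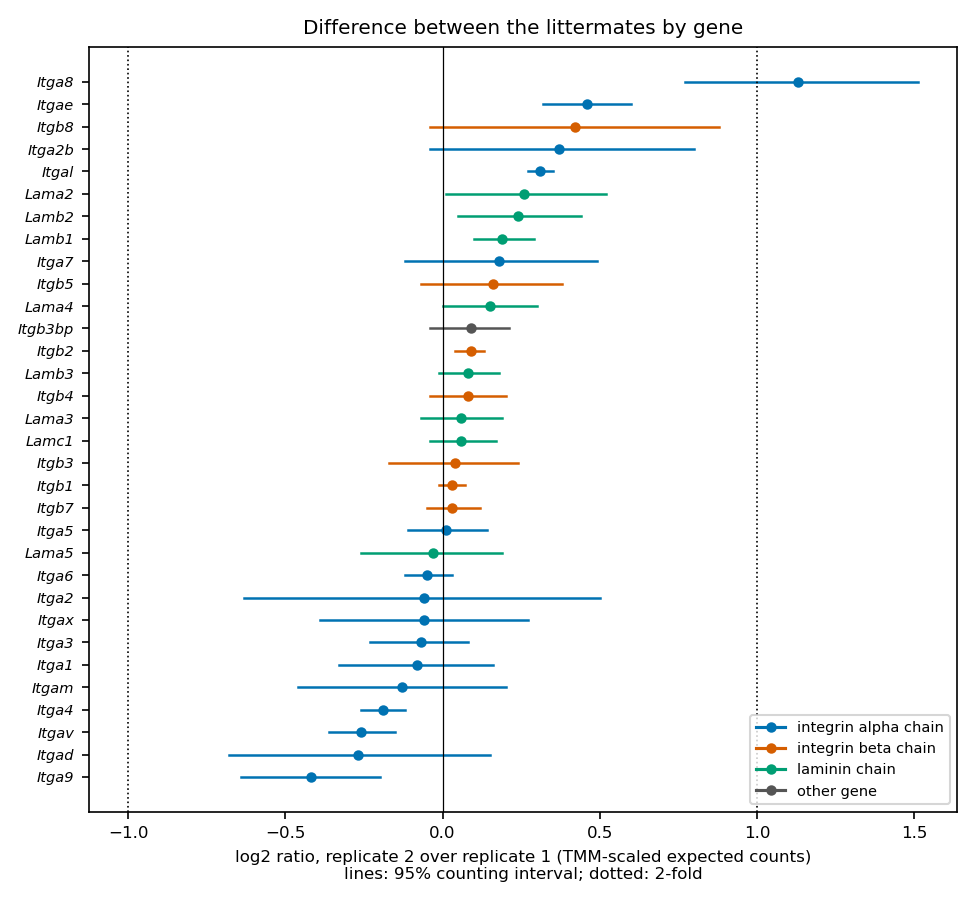
Log2 ratio of replicate 2 over replicate 1 for 32 of the 33 members with a mean of 50 counts or more, with 95% counting intervals. Dotted lines mark 2-fold. Itga8, at 1.13, stood apart from the others, which lay between -0.42 and 0.46.

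Itga8 had 90.3 counts in replicate 1 and 207 in replicate 2, a log2 ratio of 1.13 with a counting interval of 0.77 to 1.51 (2.19-fold). Its TPM ratio was smaller, at 0.56 on the log2(TPM + 0.5) scale, which understates the change of a low gene. Without the added 0.5, its TPM of 0.610 and 1.14 was still less than 2-fold apart. The short model Itga8-203, of 885 nt, held 14.9% of its TPM in replicate 1 and 0 in replicate 2. Markers of muscle, and of some other cell types, had mostly higher values in replicate 2. Of the 7 smooth muscle and pericyte markers with 50 counts or more, 6 had a log2 ratio above 0 (median 0.75), against 53.9% of all genes, and Cnn1 was over 2-fold higher, at 0.730 and 1.52 TPM. Acta2, the smooth muscle actin, was at 18 and 33.0 TPM. The log2 ratios of the others were 0.95 for Cspg4, 0.75 for Lmod1, 0.34 for Tagln, 0.23 for Myh11 and -0.08 for Rgs5. Skeletal muscle markers had a log2 ratio above 0 in 5 of 5 (median 0.66), among them the actin Acta1 at 12 and 18.4 TPM. They ranged from 0.92 for Ckm and 0.89 for Myh8 to 0.18 for Tnnt3 and 0.10 for Mylpf. Elastin (Eln), which is in no marker list and was chosen after its value was seen, had a log2 ratio of 3.01, at 9.15 and 71.4 TPM. Cortical epithelial markers were above 0 in 6 of 6 (median 0.36), mesenchymal ones in 8 of 8 (0.21) and T-lineage ones in 9 of 10 (0.12). Endothelial markers were above 0 in 3 of 8 and squamous ones in 0 of 4. The part of any of these in the Itga8 difference was not tested. Nephronectin (Npnt), the ligand of this receptor, was at 11.8 and 13 TPM, a log2 ratio of 0.14.

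The next differences were smaller. Itgae had a log2 ratio of 0.46 (723 and 1038 counts) and Itgal one of 0.31 (8848 and 11507 counts), while their beta chains Itgb7 and Itgb2 had 0.03 and 0.09. Itga4, the other partner of Itgb7, went the other way at -0.19, and so did Itgav at -0.26 and Itga9 at -0.42. The epithelial laminin genes Lamb3 and Lama3 had 0.08 and 0.06. For Lama2 the sign depended on the scale, with 0.26 by counts and -0.35 by TPM. Its short model Lama2-206 held 52.8% of its TPM in replicate 1 and 24.2% in replicate 2. Scaling on the spike-ins moved the median ratio of all genes from 0.02 to 0.71, so the directions given are relative to the bulk of genes.

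The partners outside the 2 families were described through 6 lists, chosen with earlier results of these data known. Their detection counts stand beside 57.3% of all protein-coding genes and depend on that choice. Cytoplasmic activators and adaptors of integrins had the highest share, with 27 of 28 detected and a median of 46.5 TPM. Rap1b, the small GTPase that switches integrins on, was at 282 and 255 TPM. The kinase-like adaptor Ilk was at 187 and 202 TPM and the blood-cell kindlin Fermt3 at 169 and 171 TPM. Tln2, the second talin, was below 1 TPM in both libraries.

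Counter-receptors on cells (9 of 10 detected) had a median of 17.8 TPM. The surface glycoprotein Thy1, abundant on mouse thymocytes, was at 189 and 198 TPM. Icam2 and Icam1, ligands of LFA-1, were at 102 and 103 TPM and at 51.6 and 52.6 TPM, and Vcam1, the ligand of the Itga4 and Itgb1 pair, at 99.1 and 103 TPM. The ligands of the Itgb7 integrins were lower, with E-cadherin (Cdh1) at 21.1 and 18.8 TPM and Madcam1 at 1.82 and 2.28 TPM. Icam4 was below 1 TPM.

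Soluble and matrix ligands (15 of 21) had a median of 3.87 TPM. Tenascin-C (Tnc) led at 97.6 and 99.6 TPM, followed by Mfge8, an RGD protein that bridges Itgav integrins to dying cells, at 83.6 and 76.4 TPM. Collagen I alpha 1 (Col1a1) was at 52.9 and 57.1 TPM and fibronectin (Fn1) at 32.1 and 28.8 TPM. Fgg, Fga, Fgb, Fras1, Frem1 and Egfl6 were below 1 TPM in both libraries.

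Basement membrane partners of laminins (10 of 14) had a median of 7.39 TPM. The collagen-binding matrix protein Sparc was at 249.7 and 250.3 TPM, and the common collagen IV chains Col4a1 and Col4a2 at 42.0 and 39.7 TPM and at 22.9 and 21.1 TPM. The collagen IV chains of specialised membranes, Col4a3, Col4a4 and Col4a6, and the netrin Ntn4 were below 1 TPM. Laminin receptors outside the integrins (7 of 9) had a median of 12.2 TPM. Among these Rpsa, which is also a ribosomal protein, was at 822 and 844 TPM, and the syndecan Sdc4 and the Lutheran antigen Bcam at 33.2 and 23.8 TPM and at 25.4 and 24.6 TPM. The muscle sarcoglycans Sgca and Sgcd were below 1 TPM.

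Hemidesmosome partners of Itga6 and Itgb4 were split. Plectin (Plec) was at 35.4 and 24.0 TPM, dystonin (Dst) at 9.63 and 7.55 TPM and the tetraspanin Cd151 at 7.96 and 8.31 TPM. Col17a1, the collagen of the hemidesmosome, was at 0.680 and 0.590 TPM. By counts 3 of the 4 were lower in replicate 2, as were 46.1% of all genes, at log2 ratios of -0.52 for Plec, -0.39 for Dst and -0.76 for Col17a1, while Itgb4 had 0.08. Beside these, 4 of 4 squamous epithelial markers with 50 counts or more were over 2-fold lower in replicate 2, against 1.16% of all genes. These were Krt4, Krt15, Krt13 and Krt6a. In the medullary and basal epithelial list, log2 ratios were above 0 in 4 of 6 (median 0.07), and Krt5 had one of -0.03. The part of the squamous markers in the hemidesmosome values was not tested. None of the genes in the 6 lists with 50 counts or more was over 2-fold apart, against 1.36% of all genes.

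**Figure D5:**
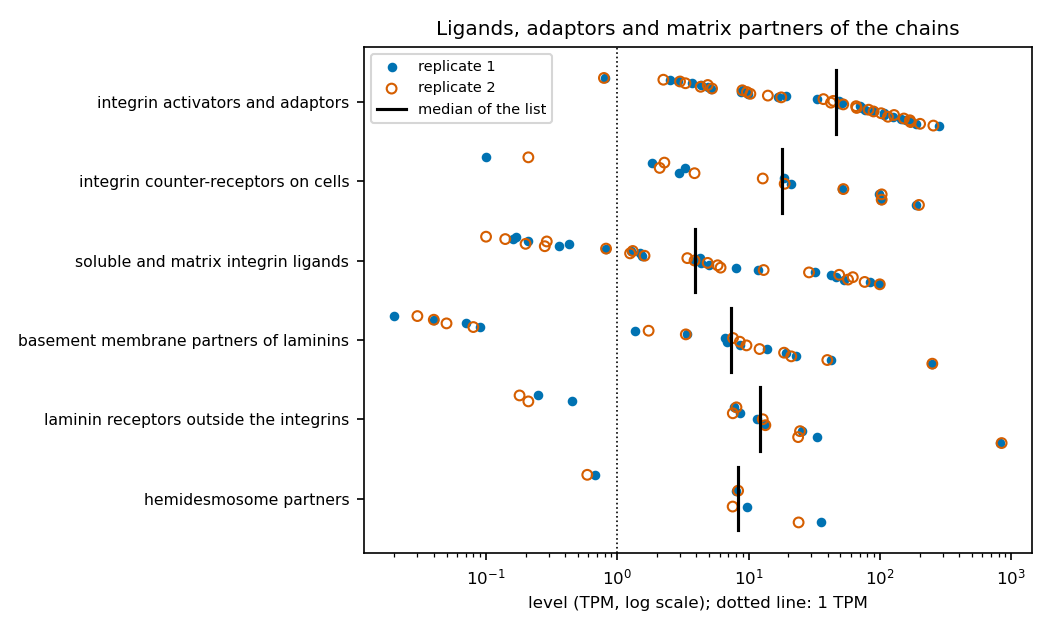
Levels of the genes in the 6 partner lists, in TPM on a log axis. Filled points are replicate 1, open points replicate 2, black bars list medians and the dotted line 1 TPM. The adaptor list had the highest median and 1 gene below 1 TPM, and the matrix ligand list the lowest median.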

How the data were processed

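The authors deposited a gene table and a transcript table for each library. Expected counts (estimated, not normalized), TPM, FPKM, lengths, posterior SDs and the percent of a gene's TPM on each transcript were deposited by the authors. The labels give genome build mm10, and the deposited read-me texts give annotation M4. Which aligner and quantifier were used, and whether strand was, is not given in the sources used here. Thus reads of overlapping antisense genes could not be told apart.

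Symbols, biotypes, transcript kinds and coordinates came from GENCODE M21 (GRCm38), by identifier without version. Of 192 member transcripts 188 matched. Depth was 39045711 and 41576378 expected counts, and a count of 0 allows 3. Spike-ins (96) and rows named only by a number (26248 rows, holding 0.000105% and 4.04e-05% of counts) were left out. To check that the files are not duplicates of 1 library, their counts were compared by chi-square in 17986 genes (statistic per degree of freedom 19). No per-sample column was left unused (0).

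Expected counts were rounded to whole numbers and scaled with TMM in edgeR 4.0.16 (R 4.3.3). Log2 ratios used a prior count of 0.5 and a minimum mean count of 50, and counting intervals are 95% exact binomial. The scaling was tested on simulated data in which as many genes were raised as lowered. That test did not cover unequal directions, such as the 1.16% of genes over 2-fold higher in replicate 1 and 0.198% in replicate 2. Alternatives used DESeq2 1.42.0 size factors, spike-ins, TPM, FPKM, other thresholds and each library alone. Full-length values were added after seeing the data. Intervals came from scipy 1.17.1, tables from pandas 2.3.3 with numpy 2.4.6 under Python 3.11.15, and plots from matplotlib 3.10.9.

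The members, the 15 marker and 6 partner lists and the thresholds were chosen with earlier results of these data known. Every member may be named. Of each list the text may name the 3 highest genes, those below 1 TPM in both libraries and those over 2-fold apart, and any marker. Icam1, Cdh1, Madcam1, Fn1, Npnt, Eln and the log2 ratios of the hemidesmosome genes were chosen after their values were seen. 1 member enters the counts but is not reported here by name. A planned comparison of protein sequences was not run.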

Additional observations from a re-analysis of the deposited data

Results flagged for a closer look

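Some rows carry a bare number in place of a gene identifier and entered no comparison. On 7 of them the tables nevertheless list reads. Together these came to 41 expected counts for the first library and 16.8 for the second, or 0.000105% and 4.04e-05% of counts.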

How the results depend on the processing

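Of the 40 genes 30 were detected, and 18 with a threshold of 5 TPM; the other 7 alternatives stayed within 1.5 times of 30. The single gene over 2-fold, Itga8, was also the only one with DESeq2 size factors, minimum counts of 10 or none, and a prior count of 5, where 1.33%, 4.71%, 12.7% and 1.19% of all genes passed. By TPM ratio 0 members passed (Itga8 at 0.56), against 0.699%, and spike-in scaling gave 5 (Itga8, Itgae, Itgal, Itgb8 and Itga2b), against 7.1% of all genes. Spike-in scaling moved all 33 log2 ratios beyond their counting intervals, TPM 9 of them and removal of length and GC trends 2.

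A chain ratio was counted as moved here where it lay over 1 SD of the 2 libraries from the deposited mean. This SD can be small, as with 0.0134 for Lama3 to Lamb3, so a moved ratio need not differ much. Of 17 chain ratios 13 moved under each of the 3 other transcript and length choices, and the main ones follow. With coding transcripts only, the ratio was 0.904 for beta2 alpha chains to Itgb2, 0.951 for beta1 alpha chains to Itgb1, 0.589 for Itga4 and Itgae to Itgb7, 2.23 for Itga6 to Itgb4, 0.348 for Lama3 to Lamb3 and 0.313 for Lama4 to Lamc1. With the longest coding transcript the values were 0.694 (beta1), 0.702 (Itgb7), 3.89 (Itga6 to Itgb4), 1.13 (Itgav to its 4 other beta chains), 0.221 (Lama3) and 0.572 (Lama4). With the full-length transcript, chosen after seeing the data, they were 0.697 (beta1), 0.702 (Itgb7), 3.50 (Itga6), 1.17 (Itgav), 0.351 (Lama3) and 0.572 (Lama4). The beta1 ratio was above 1 as deposited (1.25) and below 1 on average under these 3 alternatives, though at 1.02 in replicate 1 with coding transcripts only. The cause was not tested beyond the lengths given.

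Replicate 1 alone and replicate 2 alone gave 0.715 and 0.807 for beta2, 1.33 and 1.16 for beta1, and 0.947 and 0.909 for Itgb7. In the same order they gave 4.88 and 4.51 for Itga6 and 7.32 and 5.31 for Itgav. For Lama3 they gave 0.304 and 0.323, and for Lama4 0.518 and 0.539. With 2 libraries such values lie within 1 SD of the mean by construction. No paired analysis was possible because the study has 1 group. Depth limits the 7 genes under 50 counts, whose differences between pups were not assessed.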
